A study of Mus musculus with 20 samples.

Results

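The 4 genes described here encode fibrillar collagen chains and fibronectin, the main matrix proteins that fibroblasts secrete. They are Col1a1, Col1a2, Col3a1 and Fn1, chosen by transcript identifier (ENSMUST00000001547, ENSMUST00000031668, ENSMUST00000087883 and ENSMUST00000055226), and are 4 of the 15354 transcripts listed in any library of the series. All 4 were listed in at least 1 library. The gene symbols came with the choice of identifiers, since the deposited files hold identifiers alone.

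Ribosome footprints were measured in mouse embryonic fibroblasts of strain C57BL/6J, grown in DMEM with serum, in 20 libraries and 3 backgrounds. Control cells carried no further treatment by the labels. Knockout cells lacked Ogt, the transferase that attaches O-GlcNAc to intracellular proteins, after 0.5 µM 4-OHT for 24 h and fresh medium for 24 h. The labels give 4-OHT for the knockout only, and neither its allele nor its recombinase, so loss of Ogt and exposure to 4-OHT cannot be told apart. Thiamet-G cells received 0.1 µM of this inhibitor of O-GlcNAcase, the enzyme that removes the sugar, for 16 h. Each background was kept fed or was deprived of amino acids for 2 h in DMEM with "DFBS", which the labels do not explain. Ribo-seq sampled all ribosomes in 12 libraries, 2 for each of 6 groups. The eIF3-80S assay sampled 80S ribosomes associated with the initiation factor eIF3 in 8 libraries, 2 each for fed and starved control cells and 1 for each of the 4 knockout and Thiamet-G groups. Replicates are not said to come from separate cultures. The p-values therefore reflect the spread of the libraries at hand, which may be technical.

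Type I collagen is a trimer of α1 chains from Col1a1 and an α2 chain from Col1a2, while Col3a1 encodes the α1 chain of the homotrimeric type III collagen. The chains are translated at the endoplasmic reticulum, hydroxylated on prolines, folded into a triple helix and secreted to form fibrils. Fibronectin is a secreted dimer that binds integrins and collagens and on which fibroblasts assemble early matrix. Fibroblasts in culture usually make all 4 proteins in quantity, and collagen chains are rich in glycine and proline.

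Levels are RPKM, read numbers scaled to coding length and to the library total, so they can be compared between genes and are relative to the rest of each library. Total reads recovered from the values ranged from 844403 to 5846130 for Ribo-seq and from 52148 to 359282 for eIF3-80S. In 6 Ribo-seq files, 1 of each group, transcripts were listed almost wholly from 5 reads upward, with at most 0.123% of recovered values under 5 reads. In the other 6, listed from 1 read, 14.1% to 21.5% were under 5 reads. This split is called the listing batch below. It follows the replicate numbers in the file names, which for the 2 starved Thiamet-G Ribo-seq libraries are the reverse of those in the titles, and titles are used here. All 8 eIF3-80S files were listed from 5 reads. An unlisted transcript was therefore taken to have at most 4 reads in the first kind of file and 0 in the second. Intervals are exact 95% intervals from the read numbers and cover counting error only.

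The 4 transcripts fell into a pair listed in every library and a scarce pair. Col1a1 (chromosome 11, 94936224 to 94953042, coding length 4362 nt) and Fn1 (chromosome 1, 71585473 to 71653280, 7434 nt) were listed in all 12 Ribo-seq and all 8 eIF3-80S libraries. Col1a2 (chromosome 6, 4505618 to 4541543, 4119 nt) was listed in 3 Ribo-seq libraries, Col3a1 (chromosome 1, 45311538 to 45349706, 4395 nt) in 7, and neither in any eIF3-80S library. Positions are RefSeq gene spans on GRCm38.p6. Over all 12 Ribo-seq libraries, 12453 reads fell on Col1a1, 7152 on Fn1, 68 on Col3a1 and 21 on Col1a2. Of the fibroblast markers among these 4, Col1a1 and Fn1 were therefore present at readable levels, and Col1a2 and Col3a1 were at or near 0. Other fibroblast markers, markers of other cell types, and the enzymes and chaperones of collagen synthesis were not analysed here, because identifiers could not be matched to symbols. In such bulk libraries fewer cells that make a protein and fewer footprints per cell cannot be told apart, nor can less mRNA and fewer ribosomes per mRNA.

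Col1a1 had the highest RPKM of the 4 in every Ribo-seq library and varied from 43.17 to 169.8 RPKM, with a median of 110.2. It stood among the top 11.6% to 32.3% of the transcripts listed in each library. In fed control cells it had 46.32 RPKM in replicate 1 (677 reads) and 113.3 in replicate 2 (1498 reads). After starvation, control cells had 121.1 and 111.5 RPKM. The starved control libraries thus lay close together, with the second fed library beside them and the first fed library far lower. In knockout cells Col1a1 had 69.76 and 145.9 RPKM when fed. The starved knockout libraries had 61.07 and 92.85 RPKM, so the fed and starved ranges overlapped. In Thiamet-G cells it had 43.17 and 169.8 RPKM when fed, the lowest and the highest of the 12 libraries, which fell in the same group. The starved Thiamet-G libraries had 165.7 and 108.9 RPKM in replicates 1 and 2 by title, inside the range of the fed ones. By group mean the order ran from starved Thiamet-G (137.3 RPKM) through starved control (116.3), fed knockout (107.8), fed Thiamet-G (106.5) and fed control (79.81) to starved knockout (76.96). Every neighbour in this order overlapped the next.

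Fn1 had between 10.51 and 45.91 RPKM in the 12 Ribo-seq libraries, with a median of 32.67. Fed control cells had 18.55 and 33.47 RPKM and starved control cells 34.51 and 30.20. The lowest of these 4 values was a fed library, as for Col1a1. Fed knockout cells had 37.20 and 31.88 RPKM, while starved knockout cells had 43.88 in replicate 1 and 10.51 in replicate 2, from 954 and 66 reads. The 2 starved knockout libraries were thus among the highest and the lowest of the series, and replicate 2 was also the shallowest Ribo-seq library. Fed Thiamet-G cells had 20.27 and 30.95 RPKM and starved Thiamet-G cells 42.10 and 45.91, so that both starved libraries lay above both fed ones. By group mean the order of Fn1 ran from starved Thiamet-G (44.0 RPKM) through fed knockout (34.54), starved control (32.35), starved knockout (27.2) and fed control (26.01) to fed Thiamet-G (25.61). In this order starved Thiamet-G stood apart from its neighbour, and every later neighbour overlapped the next. The share of all transcripts with such separations, of 2 libraries from 2, was not counted.

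**Figure D1:**
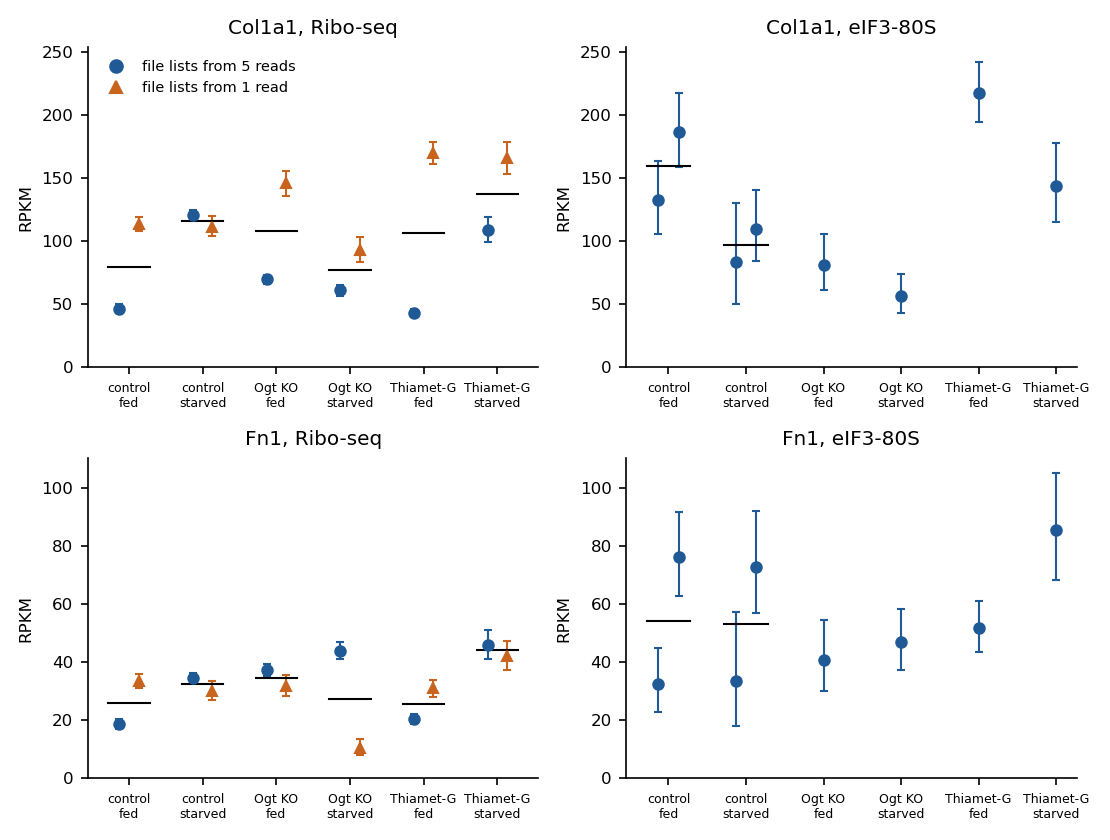
Col1a1 (top) and Fn1 (bottom) in RPKM in each Ribo-seq (left) and eIF3-80S (right) library, by background and feeding. Points are libraries with exact 95% counting intervals, colour and shape give the listing batch, and black lines are means of groups with 2 libraries. Libraries of a Ribo-seq group lay further apart than their counting intervals for Col1a1 in fed cells (43.17 to 69.76 RPKM in files listed from 5 reads, 113.3 to 169.8 in files listed from 1 read), whereas in eIF3-80S Col1a1 was lower in the starved than in the fed libraries of each background.

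Starvation did not give a change in either gene that passed the test in Ribo-seq. Over the 3 backgrounds, Col1a1 had 98.04 ± 53.2 RPKM in fed and 110.2 ± 34.4 in starved libraries, and Fn1 had 28.72 ± 7.54 and 34.52 ± 13.2 (SD, n = 6 each). The test was limma on log2(RPKM + 1) after a library factor, across the 10936 transcripts whose mean reached 1 RPKM. It included 2 of the 4 genes, Col1a1 and Fn1, since Col1a2 and Col3a1 averaged 0.166 and 0.521 scaled RPKM. The averaged log2 fold change, starved over fed, was 0.21 (SE 0.42) for Col1a1, with an adjusted p of 0.9072, and 0.09 (SE 0.40) for Fn1, with an adjusted p of 0.965. The 95% interval ran from -0.69 to 1.12 for Col1a1 and from -0.77 to 0.95 for Fn1, so changes of either sign remained within it. Limma called 0 of the 2 genes, against 0.174% of all transcripts tested (19 of 10936, and 984 at an unadjusted p under 0.05). The median of all transcripts tested was -0.01. Among the 1443 with a coding length over 3000 nt, the class to which both genes belong, the median was 0.18.

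The estimate for Col1a1 was larger between the listing batches than between fed and starved cells. Among fed libraries it had 46.32, 69.76 and 43.17 RPKM in the files listed from 5 reads and 113.3, 145.9 and 169.8 in those listed from 1 read. The ranges of the batches did not overlap in fed cells, and the share of all transcripts that separate likewise was not counted. Over all 6 groups, Col1a1 was 0.96 higher on the log2 scale in the files listed from 1 read (SE 0.31, unadjusted p = 0.006688, limma adjusted p = 0.06105), a comparison added after the values were seen, in which 9.89% of all transcripts were called and 0 of the 2 genes. Fn1 differed by -0.11 (SE 0.39, limma adjusted p = 0.8904) between the batches. Within the files listed from 5 reads, starved over fed averaged a log2 ratio of 0.69 ± 0.80 for Col1a1 (SD over 3 backgrounds, higher in 2 of 3). Within the files listed from 1 read it averaged -0.25 ± 0.33, higher in 0 of 3. The direction for Col1a1 thus differed between the batches. For Fn1 the averages were 0.62 ± 0.37 (higher in 3 of 3) and -0.45 ± 1.03 (higher in 1 of 3). What the batch stands for, beyond the replicate numbers of the file names, is not given in the sources used here, and its part in these differences was not tested.

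Pair by pair, the ratios of reads per library total were well determined by counting and disagreed across batches. In control cells Col1a1 was 2.61 times as high in starved as in fed cells (95% interval 2.40 to 2.84) in the files listed from 5 reads. The same ratio was 0.984 (0.899 to 1.08) in the files listed from 1 read. Thiamet-G cells repeated this pattern, with 2.52 (2.23 to 2.85) and 0.975 (0.887 to 1.07). In both backgrounds the ratio was therefore above 1 in the first batch and within counting error of 1 in the second. Knockout cells gave 0.875 (0.8 to 0.957) and 0.637 (0.560 to 0.722), below 1 in both batches. For Fn1, Thiamet-G cells gave 2.26 (1.97 to 2.61) and 1.36 (1.17 to 1.59), above 1 in both batches. Control cells gave 1.86 (1.68 to 2.07) and 0.902 (0.791 to 1.03), and knockout cells 1.18 (1.08 to 1.29) and 0.330 (0.249 to 0.431). These intervals leave out the difference between replicate libraries, which was larger.

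**Figure D2:**
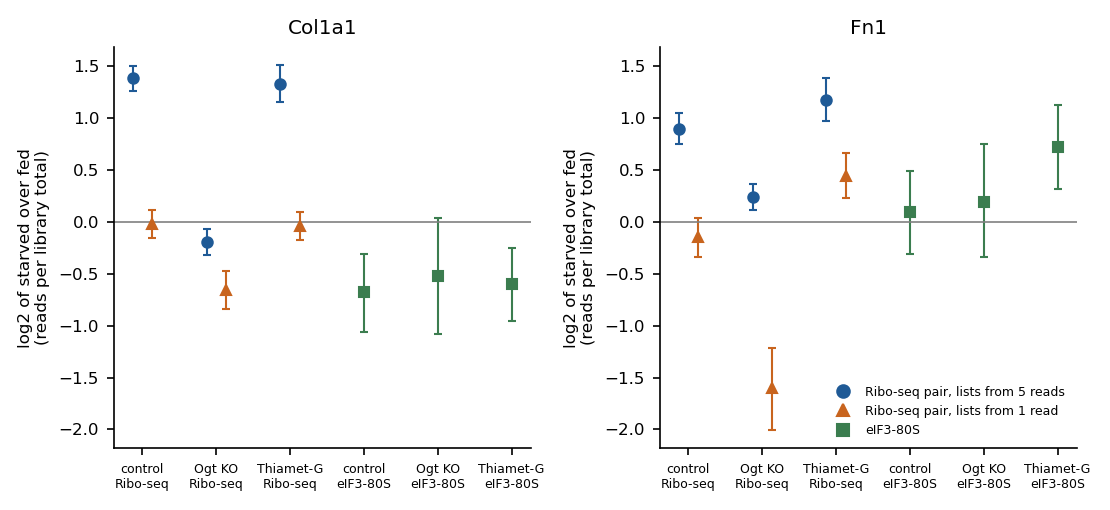
Log2 of the starved over the fed level of Col1a1 (left) and Fn1 (right), from reads per library total without the library factor, by background and assay. Ribo-seq points pair libraries of the same listing batch, eIF3-80S points use the reads of a group summed over its libraries, and bars are exact 95% counting intervals. In Ribo-seq the Col1a1 points of control and Thiamet-G cells lay above 0 in the files listed from 5 reads and at 0 in those listed from 1 read, and in eIF3-80S all 3 Col1a1 points lay below 0, with the interval of knockout cells reaching above it.

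In single backgrounds the starvation term of Col1a1 in Ribo-seq was 0.56 (SE 0.72) in control, -0.42 (SE 0.72) in knockout and 0.51 (SE 0.72) in Thiamet-G cells on the log2 scale. For Fn1 it was 0.25, -0.65 and 0.66 (SE 0.69 each). Each estimate was smaller than its SE. The sign of 5 of these 6 estimates turned when 1 library was left out. For Col1a1 this gave -0.02 in control cells without fed replicate 1, 0.14 in knockout cells without fed replicate 2 and -0.48 in Thiamet-G cells without fed replicate 1. For Fn1 it gave -0.10 in control cells without fed replicate 1 and 0.25 in knockout cells without starved replicate 2, while Thiamet-G cells ranged from 0.35 to 0.98 over all alternatives. Each group holds 1 library of each listing batch, so leaving 1 out compares unequal batches without a batch term. The part of the batch in these turns was not tested. Within the batches, Col1a1 in knockout cells and Fn1 in Thiamet-G cells kept 1 direction, and the other estimates did not. The difference between the knockout and control terms was -0.98 (SE 1.02) for Col1a1 and -0.90 (SE 0.97) for Fn1. That between the Thiamet-G and control terms was -0.05 (SE 1.02) and 0.41 (SE 0.97). In these 5 comparisons limma called 0 of the 2 genes, against a background of 0% in each, with 99 to 744 of the 10936 transcripts at an unadjusted p under 0.05 and neither gene among them.

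The O-GlcNAc backgrounds did not differ by the test for either gene in Ribo-seq. Averaged over fed and starved cells, knockout minus control was -0.17 (SE 0.51) for Col1a1 and -0.15 (SE 0.49) for Fn1. Thiamet-G minus control was 0.20 (SE 0.51) for Col1a1 and 0.20 (SE 0.49) for Fn1. Intervals for Col1a1 ran from -1.28 to 0.94 and from -0.91 to 1.31, so differences of 2-fold lay within them. In fed cells alone, Col1a1 was 0.32 higher in knockout and 0.23 higher in Thiamet-G than in control cells. In starved cells it was -0.66 and 0.18 against control (SE 0.72 throughout). For Fn1 the values were 0.30 and -0.01 in fed cells and -0.59 and 0.40 in starved cells (SE 0.69). In each of these 6 comparisons limma called 0 of the 2 genes, against a background of 0%, with 51 to 401 transcripts at an unadjusted p under 0.05 and neither gene among them. Within the files listed from 1 read, Col1a1 in Thiamet-G cells was 1.50 times its level in control cells when fed (1.39 to 1.61) and 1.49 times when starved (1.33 to 1.66). In the files listed from 5 reads the ratios were 0.932 (0.836 to 1.04) and 0.899 (0.813 to 0.993), so the batches differed here too. Starved knockout cells had a lower Col1a1 level than starved control cells in both batches, at ratios of 0.505 (0.466 to 0.546) and 0.833 (0.730 to 0.948).

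Footprints on Col1a2, the partner chain of Col1a1, were scarce and were listed in control cells alone. Its levels were 0.721 RPKM in fed control replicate 2 (9 reads), 0.208 in starved control replicate 1 (5 reads) and 1.13 in starved control replicate 2 (7 reads). In the other 9 Ribo-seq libraries it was unlisted. The files listed from 1 read allow a direct comparison, because there an unlisted transcript has 0 reads. In them control cells had 16 reads in 4535912, which gives 0.856 RPKM (0.489 to 1.39). Knockout cells had 0 of 2194508 reads, which allows up to 0.332 RPKM, and Thiamet-G cells had 0 of 2803432, which allows up to 0.260 (limits are 3 reads over the libraries of a background). Both limits lie below the pooled control interval, which covers counting error alone. Without starved control replicate 2, the control level is the 0.721 RPKM of fed replicate 2 (0.33 to 1.37), whose interval overlaps the exact knockout interval. Each background had 2 such libraries, and Col1a2 did not pass the filter for a test. In the files listed from 5 reads the unlisted libraries held at most 4 reads, or 0.224 to 1.01 RPKM, which does not separate them from 0.208 in the listed one.

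Col3a1 was nearly as scarce and was not restricted to control cells. Control cells had 0.225 RPKM in fed replicate 2 (3 reads), 0.623 in starved replicate 1 (16 reads) and 3.17 in starved replicate 2 (21 reads). Knockout cells had 0.578 (11 reads) and 1.18 (7 reads) when fed and 0.700 (9 reads) in starved replicate 1. Thiamet-G cells had a single read in fed replicate 2, or 0.118 RPKM. The highest value was that of starved control replicate 2, whose interval of 1.96 to 4.85 RPKM lay above that of fed control replicate 2 (0.0464 to 0.658). The same library held the highest level of Col1a2. In the files listed from 1 read, pooled levels were 1.20 RPKM in control (0.771 to 1.79), 0.726 in knockout (0.292 to 1.50) and 0.0812 in Thiamet-G cells (0.00205 to 0.452). The pooled control level rested on starved control replicate 2, with 21 of the 24 reads. Without it the control level was 0.225 RPKM (0.0464 to 0.658), which overlaps the Thiamet-G interval, so the backgrounds were not separated.

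The α1 and α2 chains of type I collagen thus differed far beyond counting error in these footprints. Where Col1a2 was listed, Col1a1 was 157 times (82.6 to 344), 583 times (250.0 to 1800) and 98.7 times (47.7 to 246) its level, in fed control replicate 2 and starved control replicates 1 and 2. In the other 9 Ribo-seq libraries Col1a1 was at least 107-fold to at least 451-fold higher than Col1a2, taking the upper limit for Col1a2. Against Col3a1, Col1a1 was 35.1 times as high in starved control replicate 2 (22.8 to 57.1), the lowest ratio among the 7 libraries that list Col3a1. In the 5 libraries without it Col1a1 was at least 115-fold to at least 211-fold higher. The eIF3-80S libraries were too shallow to place the scarce chains closely. Unlisted there, Col1a2 could reach 2.70 to 18.6 RPKM and Col3a1 2.53 to 17.5, so that Col1a1 was at least 4.49-fold to at least 80.5-fold higher than Col1a2. The deposited files give 1 transcript per identifier, and how reads shared between isoforms or related genes were assigned is not given in the sources used here.

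**Figure D3:**
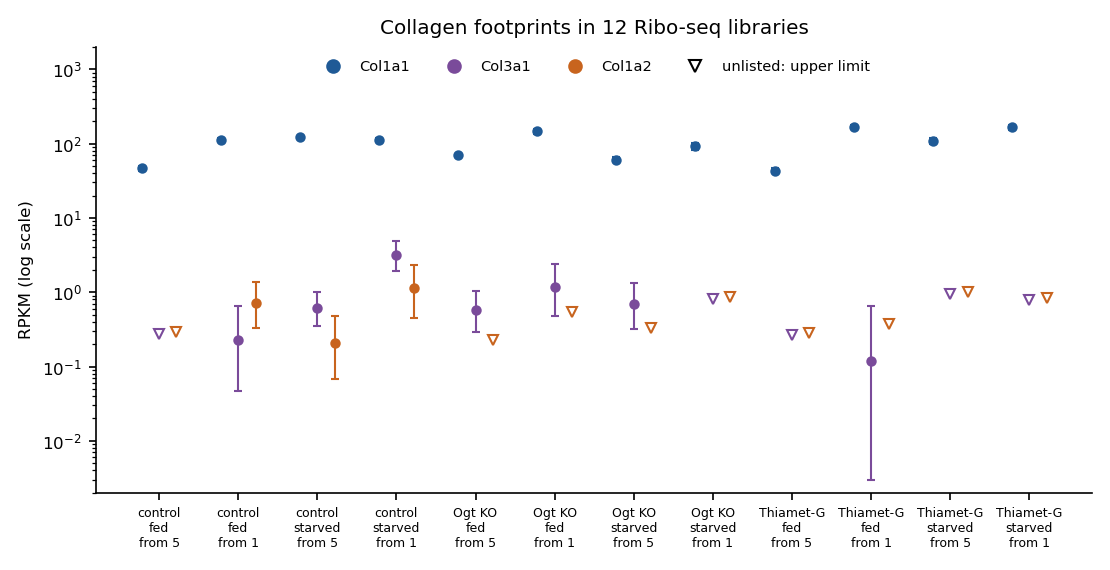
Levels of Col1a1, Col3a1 and Col1a2 in RPKM on a log axis in the 12 Ribo-seq libraries, by background, feeding and listing batch (from 5 or from 1 read). Filled points carry exact 95% counting intervals, and open triangles mark the upper limit of an unlisted transcript (4 reads in files listed from 5 reads, 3 reads otherwise). Col1a1 stood between 43.17 and 169.8 RPKM in every library, and Col1a2 was listed in 3 libraries, all from control cells.

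On eIF3-associated ribosomes Col1a1 was lower in the starved than in the fed libraries of each background. Fed control cells had 132.4 and 187.0 RPKM (86 and 163 reads) and starved control cells 83.53 and 110.0 (19 and 62 reads), so the groups did not overlap. The share of all transcripts whose control groups separate in this way was not counted. Knockout cells had 81.55 RPKM when fed and 56.91 when starved (55 and 57 reads). Thiamet-G cells had 217.6 and 143.9 (341 and 86 reads). With reads summed over the libraries of a group, starved over fed was 0.625 (0.480 to 0.806) in control, 0.698 (0.473 to 1.03) in knockout and 0.662 (0.516 to 0.840) in Thiamet-G cells. The ratio was thus below 1 in the 3 backgrounds, and the interval of knockout cells included 1. These ratios are without the library factor. After it, the log2 ratio of mean levels was -0.91 in control, -0.72 in knockout and -0.33 in Thiamet-G cells. Counting intervals were not computed on that scale, so which of them include 1 may depend on the scaling.

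The test did not call this difference. In a fit with additive terms for background and for starvation over all 8 libraries, the starvation term of Col1a1 was -0.71 on the log2 scale (SE 0.34, unadjusted p = 0.07695, limma adjusted p = 0.6756). That of Fn1 was 0.14 (SE 0.56, limma adjusted p = 0.9624). Limma called 0 of the 2 genes against 0.284% of all transcripts tested (22 of 7734, and 648 at an unadjusted p under 0.05). The median of all 7734 was -0.75, a value that unlisted transcripts, taken as 0, enter. Among the 1183 with a coding length over 3000 nt, the class of both genes, it was -0.23. Among the 1679 transcripts listed in all 8 libraries the median was 0.03, Col1a1 stood at percentile 10.3 of the fold changes, and its adjusted p was 0.08186, while 10.7% of these transcripts were called. With limma-voom on the recovered reads, an alternative test, Col1a1 was called lower (-0.69, adjusted p = 0.0402, where 4.27% of transcripts were called). In control cells alone the term was -0.91 (SE 0.20, unadjusted p = 0.02685, limma adjusted p = 0.4204), with 0 of the 2 genes and 0% of all transcripts called and 566 transcripts at an unadjusted p under 0.05, Col1a1 among them.

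The backgrounds were ordered alike in fed and starved cells for Col1a1 on eIF3-associated ribosomes. The Thiamet-G library lay above both control libraries and the knockout library below both, fed as well as starved. The share of all transcripts ordered in this way was not counted. In fed cells the knockout library had 0.498 of the control level (0.365 to 0.669) and the Thiamet-G library 1.33 times it (1.13 to 1.57). In starved cells the ratios were 0.556 (0.389 to 0.790) and 1.41 (1.03 to 1.93). These comparisons rest on 1 library for each knockout and Thiamet-G group. From the additive fit, and added after the values were seen, knockout minus control was -0.91 (SE 0.42, limma adjusted p = 0.8728) and Thiamet-G minus control 0.57 (SE 0.42, limma adjusted p = 0.8953). Thiamet-G minus knockout was 1.48 (SE 0.48, unadjusted p = 0.01903, limma adjusted p = 0.9156). Limma called 0 of the 2 genes and 0% of all transcripts in each of these 3 comparisons, with 239, 177 and 150 of 7734 transcripts at an unadjusted p under 0.05. With limma-voom on the recovered reads the last of these differences in Col1a1 was called (1.44, adjusted p = 0.003117, where 0.802% of transcripts were called). For Fn1 the same 3 differences were -0.24 (SE 0.69), 0.46 (SE 0.69) and 0.71 (SE 0.79).

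Fn1 on eIF3-associated ribosomes differed between fed and starved cells by less than counting error in control and knockout cells, and had a higher starved level in the Thiamet-G pair. Fed control cells had 32.53 and 76.08 RPKM (36 and 113 reads) and starved control cells 33.53 and 72.85 (13 and 70 reads). The replicates of each group thus stood further apart than the groups, with replicate 2 the higher in both. Knockout cells had 40.89 RPKM fed and 46.87 starved, and Thiamet-G cells 51.67 fed and 85.44 starved. Starved over fed, by reads summed over a group, was 1.07 (0.809 to 1.41) in control, 1.15 (0.790 to 1.68) in knockout and 1.65 (1.25 to 2.18) in Thiamet-G cells. The last interval alone lay above 1, as for Fn1 in both Ribo-seq pairs of Thiamet-G cells. The control ratio turned with the weighting of libraries, since the mean level was 54.3 RPKM in fed and 53.19 in starved control cells, and after the library factor the log2 ratio was -0.20 in control cells.

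Averaged over all libraries, Col1a1 and Fn1 had higher mean RPKM in eIF3-80S than in Ribo-seq, without passing the test. By group mean Fn1 was higher in eIF3-80S in 6 of 6 groups. The eIF3-80S value of each knockout and Thiamet-G group is that of 1 library. The share of all transcripts higher in 6 of 6 groups was not counted. Col1a1 was higher in 3 of 6 and lower in starved control cells (96.77 against 116.3 RPKM), fed knockout cells (81.55 against 107.8) and starved knockout cells (56.91 against 76.96). Col1a1 had 126.6 ± 55.1 RPKM in the 8 eIF3-80S libraries and 104.1 ± 43.2 in the 12 Ribo-seq libraries (SD). Fn1 had 54.98 ± 20.5 and 31.62 ± 10.7. In 1 fit of all 20 libraries, averaged over the 6 groups, eIF3-80S minus Ribo-seq was 0.18 (SE 0.38, limma adjusted p = 0.6951) for Col1a1 and 0.73 (SE 0.36, limma adjusted p = 0.1072) for Fn1. Limma called 0 of the 2 genes against 55.8% of the 10542 transcripts tested (5878, and 6472 at an unadjusted p under 0.05), nearly all of them lower in eIF3-80S (5544). The median of all transcripts was -1.53, and Col1a1 and Fn1 stood at percentiles 88.2 and 94.1 of them. Among the 1396 with a coding length over 3000 nt, the class of both genes, the median was -0.23. Depth moves with this background, since a transcript under 5 reads is unlisted in the shallower assay, and the part of depth was not tested. Among the 1675 transcripts listed in all 20 libraries the median was -0.03 and the percentiles were 59.1 and 77.2. There Fn1 was called higher in eIF3-80S (0.73, adjusted p = 0.04892), where 41.5% of transcripts were called. The assays also differ in the sizes cut from the gel, 20 to 70 nt for eIF3-80S and 25 to 35 nt for Ribo-seq.

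Within control cells the assays differed with feeding in the estimates and not by the test. In fed control cells eIF3-80S minus Ribo-seq was 0.86 (SE 0.80) for Col1a1 and 0.72 (SE 0.77) for Fn1. In starved control cells it was -0.33 (SE 0.80) and 0.54 (SE 0.77). In either comparison limma called 0 of the 2 genes, against 24.4% of transcripts in fed and 30.4% in starved control cells (3939 and 4658 at an unadjusted p under 0.05, neither gene among them). The difference between the assays' starvation terms, averaged over the 3 backgrounds and added after the values were seen, was -0.71 (SE 0.76, limma adjusted p = 0.92) for Col1a1 and 0.32 (SE 0.73, limma adjusted p = 0.9756) for Fn1. Here limma called 0 of the 2 genes against 0.617% of all transcripts, with 948 at an unadjusted p under 0.05. The fall of Col1a1 estimates in eIF3-80S and its mixed estimates in Ribo-seq were therefore not shown to differ.

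The ratio of Col1a1 to Fn1 within a library needs no scaling between libraries. In Ribo-seq it ran from 1.39 to 8.83 with a median of 3.45, and Col1a1 exceeded Fn1 in all 12 libraries. The highest ratio, 8.83 (6.77 to 11.7), was that of starved knockout replicate 2, the library with 66 reads on Fn1. The lowest, 1.39 (1.26 to 1.53), was that of the other starved knockout library. In the files listed from 1 read the ratio was 3.39 or more in every library, and in those listed from 5 reads it reached 3.51 in starved control cells and was 2.50 or less elsewhere. In eIF3-80S the fed libraries had ratios of 1.99 to 4.21 and the starved ones 1.21 to 2.49. Within each eIF3-80S background the starved ratio was lower, from 4.07 and 2.46 to 2.49 and 1.51 in control, from 1.99 to 1.21 in knockout and from 4.21 to 1.68 in Thiamet-G cells, although 1 starved control value slightly exceeded 1 fed one. No such order appeared in Ribo-seq, where fed ratios ran from 1.88 to 5.49 and starved ratios from 1.39 to 8.83. In eIF3-80S the fed and starved counting intervals overlapped in knockout cells (1.33 to 3.01 and 0.849 to 1.73) and not in Thiamet-G cells (3.45 to 5.17 and 1.24 to 2.3). That of starved control replicate 1 (1.17 to 5.49) overlapped both fed control intervals. The ratios were not tested, and each eIF3-80S knockout and Thiamet-G group held 1 library.

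**Figure D4:**
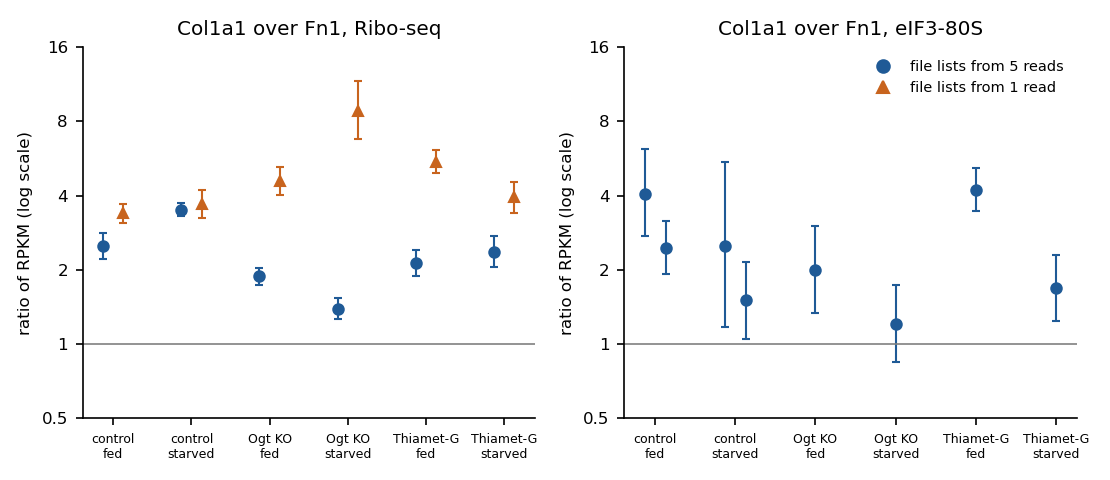
Ratio of Col1a1 to Fn1 in RPKM on a log axis in each Ribo-seq (left) and eIF3-80S (right) library, by background and feeding, with exact 95% counting intervals and the listing batch as colour and shape. The grey line marks equal levels. Ribo-seq ratios ran from 1.39 to 8.83, and eIF3-80S ratios from 1.99 to 4.21 in fed and from 1.21 to 2.49 in starved libraries.

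Together the 4 transcripts held 0.0339% to 0.104% of the reads of a Ribo-seq library and 0.0597% to 0.138% of those of an eIF3-80S library, nearly all on Col1a1 and Fn1. The transcripts most like the 4 members over the 12 Ribo-seq libraries, by Pearson correlation with their mean profile among 6973 candidates, were ENSMUST00000106962 (r = 0.938, coding length 2496 nt, mean 39.19 RPKM) and ENSMUST00000029885 (r = 0.916, 1602 nt, 59.91 RPKM). The profile weights the 4 members equally, including Col1a2 and Col3a1, which were at or near 0 and were taken as 0 where unlisted. It is a description without a test, since the libraries share their listing batches and depth differs between them. The members themselves correlated with it at 0.69 for Col1a1, 0.64 for Col1a2, 0.717 for Col3a1 and 0.636 for Fn1, each of which is part of the profile.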

How the data were processed

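Footprints were measured by Ribo-seq and eIF3-80S-seq, and 1 value per transcript and library was deposited. The unit deposited by the authors is RPKM. Per the submitters' processing notes, cutadapt, STAR and GRCm38 were used. How reads were counted, with which annotation release and which filter, is not given in the sources used here. Sample titles gave the groups and replicate numbers. The members, gene lists and tests were chosen with earlier results of these data known.

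Whole reads, library totals and coding lengths were recovered from the steps between RPKM values (relative tolerance 1e-09) for 13214 of 15354 transcripts, covering 96.4% or more of each library's values. Lengths are called coding lengths because 99.8% were multiples of 3. The recovery and the limma fits were tested on simulated data. The total and the listing of each library set the counting precision.

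RPKM was multiplied by a median-ratio library factor, with an unlisted transcript as 0. Transcripts whose mean reached 1 RPKM entered two-sided limma fits (limma 3.58.1, R 4.3.3, lmFit and trended eBayes) of log2(RPKM + 1), with Benjamini-Hochberg adjustment over all transcripts tested and a threshold of 0.05. The reported fold changes use this scale and understate changes of low transcripts. A joint fit of all 6 groups gave the Ribo-seq contrasts. Intervals are exact Poisson for a level and exact (Clopper-Pearson) for a ratio of reads, from SciPy 1.17.1. The named genes were the 4 members and the 2 transcripts most correlated with their mean profile among those listed in every Ribo-seq library with at least 10 RPKM. Lists of matrix genes and cell type markers were not analysed, since 0 identifiers matched a symbol. Alternatives covered the pseudocount (0.1), the filter, the listing, the scaling, the trend, limma-voom on recovered reads, replicate blocks and each library left out.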

Additional observations from a re-analysis of the deposited data

How the results depend on the processing

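Over 22 comparisons, of which 17 were planned, 426 of 432 alternative counts of called genes stayed at the 0 reported. In the other 6 the count was 1. Col1a1 was called under limma-voom for starvation in eIF3-80S (-0.69, adjusted p = 0.0402; log2 fold changes of -0.85 to -0.58 and adjusted p of 0.0402 to 0.7417 over 15 alternatives) and for Thiamet-G against knockout in eIF3-80S (1.44, adjusted p = 0.003117; 1.22 to 2.28 and 0.003117 to 0.9997). Of all transcripts tested, limma-voom called 4.27% and 0.802% in these comparisons. Fn1 was called higher in eIF3-80S than in Ribo-seq with transcripts listed in every library only (0.73, adjusted p = 0.04892), with quantile normalization (1.65, adjusted p = 0.0107) and without starved control eIF3-80S replicate 1 (0.85, adjusted p = 0.04123), over a range of 0.59 to 1.65 and 0.0107 to 0.2265. Leaving out libraries 1 at a time gave a count of 0 or 1. With transcripts listed in every library only, 41.5% of those tested were called, and with quantile normalization 32.6%. With no filter, Col3a1 was called lower in eIF3-80S than in Ribo-seq in starved control cells (-1.34, limma adjusted p = 0.04776), where 17.3% of transcripts were called. Col3a1 was unlisted in every eIF3-80S file, and the call rests on taking it as 0 there. It could reach 17.5 and 7.04 RPKM in starved control eIF3-80S replicates 1 and 2. These limits lie above its Ribo-seq levels of 0.623 and 3.17, so the call does not show a lower level. Of 864 alternative fold changes 46 had another sign than the main estimate, and in 0 of these 46 had the main estimate exceeded its SE. The averaged starvation term of Col1a1 in Ribo-seq ran from -0.11 to 0.55 and that of Fn1 from -0.21 to 0.39. Without fed Thiamet-G replicate 1 the term of Col1a1 was -0.11, and without starved knockout replicate 1 that of Fn1 was -0.21. Both of these fits leave the listing batches unequal between fed and starved libraries.

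Replicate numbers were not taken to pair the libraries, since not every pair of groups met the criterion of a correlation above 0.1. The main Ribo-seq fits thus hold no term for the listing batch, and the difference between batches is part of their SE. Deviations from group means correlated above 0.1 in 9 of 15 pairs of groups by title number (-0.309 to 0.445, 8373 transcripts) and in 14 of 15 by listing batch (0.080 to 0.445), which is the numbering of the file names. With a replicate block by title numbers the averaged starvation term in Ribo-seq had an adjusted p of 0.8802 for Col1a1 and 0.9602 for Fn1, and by listing batch 0.7874 and 0.9416, and the block called 0 genes in each comparison in which it could be fitted. For that term 0.064% of all transcripts were called by title numbers and 0.914% by listing batch, and 0% in the other planned Ribo-seq comparisons. Between the assays the block by title numbers called 61.7% averaged over the groups. It called 31.2% in fed and 41.7% in starved control cells, and 0.882% for the difference between starvation terms. For starvation in eIF3-80S control cells the block by title numbers gave Col1a1 an adjusted p of 0.7507, where 0% of all transcripts were called.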
